A study of Homo sapiens with 6 samples.

Results

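NQO1, NQO2 and the epoxide hydrolases EPHX1, EPHX2, EPHX3 and EPHX4 are enzymes that remove reactive quinones and epoxides. They are described here by the NRF2 peaks listed at their genes in HMC3, an established line of human microglia. The members are these 6 of 19974 protein-coding genes of RefSeq on hg38, and a peak was taken for a gene when its summit lay inside the gene or within 50 kb of either end. NRF2-bound DNA was precipitated with an NRF2 antibody and sequenced (ChIP-seq), giving 2 libraries from cells kept for 4 h with CDDO-Im at 30 nM and 2 from cells given vehicle. CDDO-Im is a synthetic triterpenoid that activates NRF2. Groups were read from the sample titles, because all samples carry 1 common treatment text. The 2 input samples were not analysed here. Occupancy lists do not measure expression, so the cell type was not checked against its markers.

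NRF2 is a transcription factor that is normally kept scarce by KEAP1, which marks it for breakdown. Compounds such as CDDO-Im modify KEAP1, and NRF2 then builds up and binds, with a small MAF partner, to antioxidant response elements at detoxification and antioxidant genes. NQO1 reduces quinones fully to hydroquinones and so avoids the reactive semiquinone. It is among the genes most often used to read NRF2 activity. NQO2 is its close relative and takes dihydronicotinamide riboside rather than NADH or NADPH as electron donor. EPHX1, the microsomal epoxide hydrolase, opens epoxides of foreign compounds with water. EPHX2, the soluble epoxide hydrolase, acts on epoxides of fatty acids. EPHX3 also hydrolyses fatty acid epoxides, and EPHX4 is a member of the same family.

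The lists held 4024 and 12433 peaks for CDDO-Im 1 and 2, and 4227 and 7448 for vehicle 1 and 2. Of these, 3882, 12244, 4098 and 7308 lay on chromosomes 1 to 22 and X. The median peak had 7 to 9 tags at its summit, a tag being a sequenced fragment counted there and recovered from the deposited values. Each library's lowest background under a peak, 0.315 to 0.367 tags, was taken as a measure of its depth. Megabases with more than 20 joined regions, called dense here, held no member peak.

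In all, 11 peaks at 5 sites lay in the member windows. CDDO-Im 1 listed 5 and CDDO-Im 2 listed 4, against 1 in vehicle 1 and 1 in vehicle 2. The groups did not overlap, and the difference in group means was 3.5 peaks (exact permutation p = 0.33, two-sided, n = 2 and 2, the smallest p this design allows). The lists as a whole separated the same way outside dense megabases, with 3249 and 4795 peaks in CDDO-Im 1 and 2, against 1216 and 1276 in vehicle 1 and 2. NQO1, NQO2 and EPHX1 had listed peaks and EPHX2, EPHX3 and EPHX4 had none in any library. The labels do not say whether replicates are separate cultures, and p-values over libraries then measure a spread that may be technical.

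**Figure D1:**
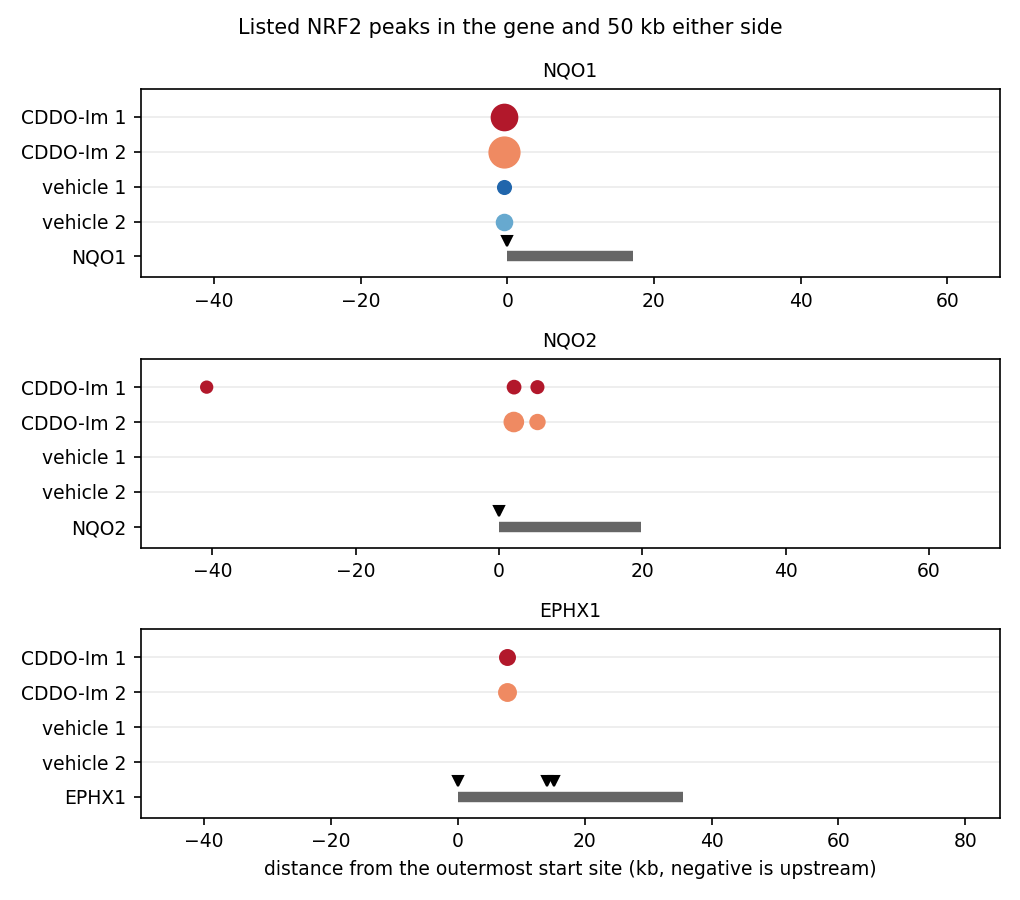
Listed NRF2 peaks at NQO1, NQO2 and EPHX1 for each library, by distance of the summit from the outermost start site of the gene in kb. Dots grow with summit tags, grey bars are the genes and triangles are RefSeq start sites. NQO1 has 1 peak in each of the 4 libraries, and NQO2 and EPHX1 have peaks in the CDDO-Im libraries but none in the vehicle libraries.

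Regions, made of peaks that overlap by at least 1 bp, are called CDDO-Im-shared when both CDDO-Im libraries list them, vehicle-shared when both vehicle libraries do, and CDDO-Im-only when they are CDDO-Im-shared with no vehicle peak. A CDDO-Im-shared region lay inside or within 50 kb of 3 of the 6 members, where the share of all protein-coding genes was 11.6%. Among the 8707 genes within the members' range of lengths, 10090 to 57484 bp, the share was 9.37%. A vehicle-shared region lay at 1 of 6, NQO1, where the share of all genes was 1.81%, and 1.65% within that range of lengths. It was also the only member region of all 4 libraries, which 1.78% of all genes had. CDDO-Im-only regions lay at 2 of 6, NQO2 and EPHX1, against 7.56% of all genes, and these were the 2 members with a CDDO-Im-shared region inside the gene, against 4.46%.

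Of the 5 member sites, 3 were CDDO-Im-only, as were 19.3% of the 7386 joined regions outside dense megabases, and 1 was held by all 4 libraries, as were 3.11%. With single lists, 16.4% of genes had a CDDO-Im 1 peak in the window and 23.0% a CDDO-Im 2 peak, against 6.66% with a vehicle 1 peak and 7.53% with a vehicle 2 peak. The members were chosen as known detoxification genes with earlier results of these data in view, so these counts carry no test.

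NQO1 (chromosome 16, 69709401 to 69726560, minus strand) had a single region upstream of its start site, listed in all 4 libraries (chr16:69726731-69727237). Its summits lay 454 bp upstream of the start site in CDDO-Im 1, 456 bp in CDDO-Im 2, 474 bp in vehicle 1 and 421 bp in vehicle 2. The 4 summits thus fell within 53 bp of each other, and the CDDO-Im pair within 2 bp.

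The RefSeq window at this start site (250 bases before to 50 after, GRCh38.p14, chr16:69726511-69726810, minus strand) is shown because it meets the region's edge. Capitals mark the 80 bases that lie inside the CDDO-Im 2 peak.
NQO1: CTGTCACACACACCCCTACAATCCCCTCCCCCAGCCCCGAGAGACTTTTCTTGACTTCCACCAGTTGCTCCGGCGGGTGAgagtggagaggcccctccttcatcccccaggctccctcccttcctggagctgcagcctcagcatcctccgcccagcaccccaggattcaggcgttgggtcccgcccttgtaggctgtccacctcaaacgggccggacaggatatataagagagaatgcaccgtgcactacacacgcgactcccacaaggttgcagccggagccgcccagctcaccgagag
The CDDO-Im 1 peak covered 28 bases of this window and the vehicle 2 peak 20, while the vehicle 1 peak ended before it. All 4 summits lay farther upstream than the window reaches, and the bases under them were not used here.

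The same stretch belongs to a second transcript. NQO1-DT, a long non-coding RNA gene on the opposite strand (chromosome 16, 69726727 to 69743918), starts 167 bp from the NQO1 start site. The summits lay inside it, 287 and 289 bp from its start in CDDO-Im 1 and 2, and 307 and 254 bp in vehicle 1 and 2. ChIP-seq has no strand, so the region cannot be given to either transcript. The window around NQO1 also held the protein-coding genes NFAT5, NOB1 and WWP2, and no library listed another peak in it.

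**Figure D2:**
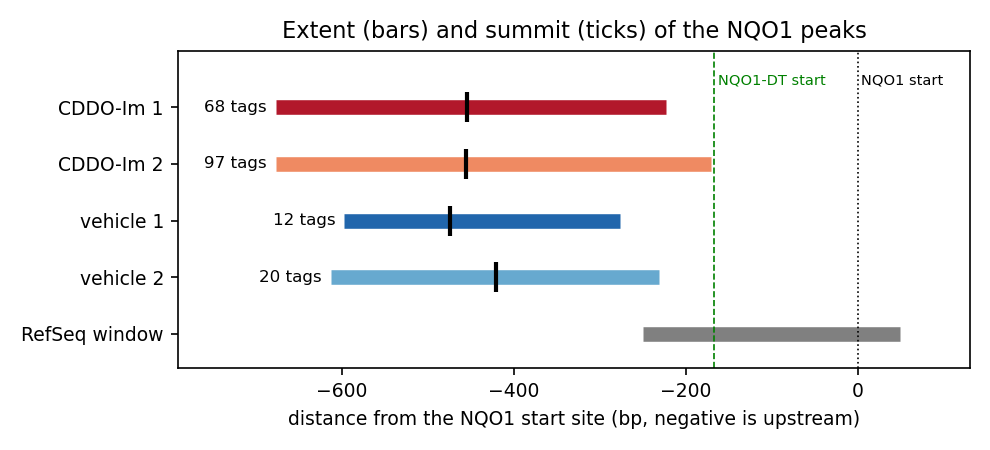
Extent (bars) and summit (black ticks) of the NQO1 peak in each library, by distance in bp from the NQO1 start site. The grey bar is the RefSeq window, and lines mark the NQO1 and NQO1-DT starts. The CDDO-Im peaks are 455 and 507 bp wide, the vehicle peaks 321 and 383 bp, and all 4 summits lie upstream of both starts as read along NQO1.

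At the NQO1 summit, CDDO-Im 1 had 68 tags and CDDO-Im 2 had 97, against 12 in vehicle 1 and 20 in vehicle 2. The CDDO-Im libraries were both higher than either vehicle library. Divided by each library's lowest background, these were 205 and 264 in CDDO-Im 1 and 2, and 38.0 and 63.6 in vehicle 1 and 2. On the log2 scale the means were 7.86 ± 0.26 for CDDO-Im and 5.62 ± 0.52 for vehicle (SD, n = 2 each). The difference was 2.24, or 4.73-fold, and larger than the spread between replicates (exact permutation p = 0.33, two-sided, the smallest this design allows). Over the 4 pairings of a CDDO-Im with a vehicle library, the ratio lay between 3.22 and 6.94.

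NQO1 was already among the stronger sites under vehicle. By the authors' fold enrichment, which is the caller's own value and is ranked only within a list, the NQO1 peak had 43.8 (place 17 of 3882) in CDDO-Im 1 and 65.0 (18 of 12244) in CDDO-Im 2. In vehicle 1 it had 8.33 (154 of 4098) and in vehicle 2 it had 14.4 (52 of 7308). Without dense megabases the places were 17 of 3249 and 18 of 4795 in the CDDO-Im lists, and 100 of 1216 and 34 of 1276 in the vehicle lists. Its deposited −log10 q was 109 and 177 in the CDDO-Im libraries, against 8.57 and 21.7 in the vehicle libraries. The −log10 p of the same peaks was 115 and 183 in the CDDO-Im libraries, against 13.3 and 27.1 in the vehicle libraries.

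Most regions listed in all 4 libraries moved the same way as NQO1. Of 230 such regions outside dense megabases, 87.0% were higher, in tags over background, in each CDDO-Im library than in each vehicle library. The ratio at NQO1 was above the upper quartile of these regions, 3.89, and 21 of the 230 (9.13%) had a larger one. The median was 3.21. Regions with near-equal tags in all libraries were kept in this ranking and lower its median. One of them (chr1:125178823-125180893) had 341 and 302 tags in CDDO-Im 1 and 2, against 333 and 291 in vehicle 1 and 2. The NQO1 peak was wider in both CDDO-Im libraries, as were peaks at 83.9% of the 230 regions. Vehicle 2 exceeded vehicle 1 by 1.67-fold at NQO1, where the median region had 1.13. CDDO-Im 2 exceeded CDDO-Im 1 by 1.29-fold, where the median region had 1.40.

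**Figure D3:**
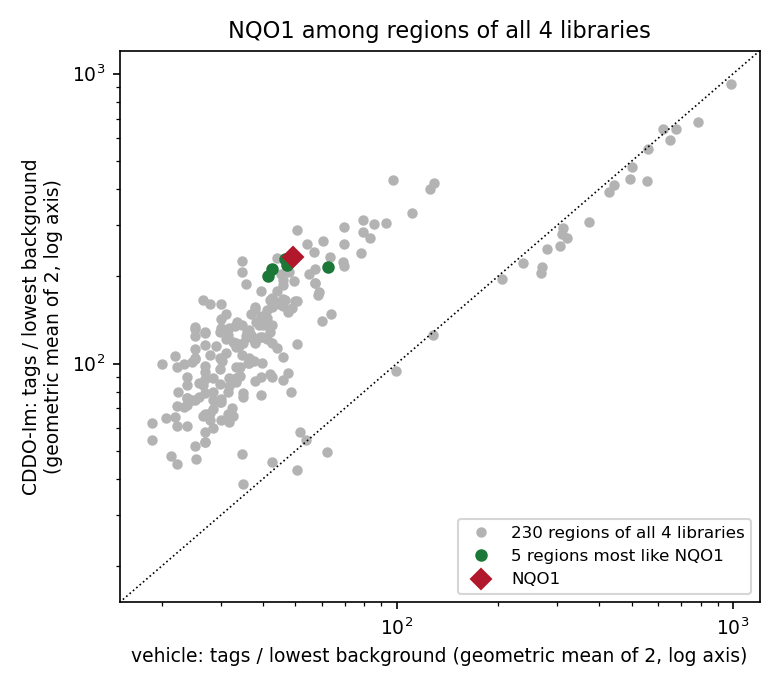
Summit tags over the lowest background of the library, as geometric means of 2 CDDO-Im libraries (y, log axis) and 2 vehicle libraries (x, log axis), for 230 regions listed by all 4 libraries, without dense megabases. The dotted line marks equal values. NQO1 (diamond) lies 4.73-fold above it, and the green points are the 5 regions most like it.

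Few genes had a region this close to a start site. A CDDO-Im-shared region lay within 1000 bp of a start site for 29 of 15812 protein-coding genes with a start site in the table (0.183%), and one of all 4 libraries for 7 (0.0443%). The other genes with one of all 4 were IFRD1, SQSTM1, PARP2, HSPA1A, HSPA1B and HSPA1L, named after their values were seen. HSPA1A and HSPA1B are near-identical copies, and HSPA1A and HSPA1L share a region. At PARP2 the tags were 15 and 52 in CDDO-Im 1 and 2, against 26 and 9 in vehicle 1 and 2. At HSPA1B they were 15 and 17, against 12 and 15. At the other genes named, each CDDO-Im library had more tags than each vehicle library. Of the 5 members with a start site in the table (NQO1, NQO2, EPHX1, EPHX3 and EPHX4), NQO1 alone had a region of all 4 libraries within 1000 bp of one.

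The regions whose tags over background in the 4 libraries were most like those of NQO1 (smallest Euclidean distance on the log2 scale, over 4 libraries and 230 regions) were nearest to IFRD1, AQP11, ANKRD18B, TRIM16 and EFNA5. The distances were 0.19, 0.28, 0.37, 0.51 and 0.53 in that order. The IFRD1 region (chr7:112422826-112423274), 79 bp outside that gene for a transcriptional co-regulator, had 62 and 94 tags in CDDO-Im 1 and 2, against 11 and 20 in vehicle 1 and 2. The AQP11 region (chr11:77602304-77602764), inside the gene of a water channel, had 60 and 107 tags in the CDDO-Im libraries, against 12 and 18 in the vehicle libraries. The TRIM16 region (chr17:15642791-15643262) had 53 and 93 tags with CDDO-Im, against 10 and 17 with vehicle. The ANKRD18B region lay 44314 bp outside that gene and had 65 and 84 tags with CDDO-Im, against 10 and 18 with vehicle. The EFNA5 region, inside its gene, had 61 and 92 tags with CDDO-Im, against 15 and 26 with vehicle.

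NQO2 (chromosome 6, 2999894 to 3019755, plus strand) had no peak at its start site but 2 CDDO-Im-only regions inside the gene. The first (chr6:3001791-3002137) had its summits 2103 and 2070 bp downstream of the start site in CDDO-Im 1 and 2. The second (chr6:3005131-3005402) had them 5365 and 5371 bp downstream. Having 2 or more such regions inside or within 50 kb was true of 0.461% of protein-coding genes.

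At the first NQO2 region CDDO-Im 1 had 11 tags and CDDO-Im 2 had 32, and neither vehicle library listed a peak. Its fold enrichment was 6.86 and 13.1, and its −log10 q 6.52 and 27.1, in the same order. The CDDO-Im libraries differed here. Over each library's lowest background, CDDO-Im 2 exceeded CDDO-Im 1 by 2.63-fold. The median of the 1428 CDDO-Im-only regions outside dense megabases was 1.28. This ratio does not take the local background into account. The local background at this summit was also high, 1.52 tags or 4.15 times the library's lowest in CDDO-Im 2, and 0.75 tags or 2.26 times in CDDO-Im 1. The part of this background in the result was not tested.

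At the second NQO2 region CDDO-Im 1 had 9 tags and CDDO-Im 2 had 16, again with no vehicle peak. Its fold enrichment was 7.13 and 10.4 and its −log10 q 6.71 and 14.2 in CDDO-Im 1 and 2. Its summed CDDO-Im tags, 25, lay below the median of 27 over the 1428 regions, while the 43 of the first region were exceeded in 14.5% of them. At a −log10 q of at least 10, CDDO-Im 1 no longer listed either region, and 1 of the 3 CDDO-Im-only member regions was left, that of EPHX1.

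Another NQO2 site was listed in CDDO-Im 1 alone (chr6:2958951-2959308), with 7 tags, a fold enrichment of 5.43 and a −log10 q of 3.63. It lay 40779 bp upstream of the NQO2 start site and inside SERPINB6, the gene of a serine protease inhibitor. It was the member peak farthest from its gene. The nearest vehicle peaks to NQO2 were 1264.24 kb away in vehicle 1 and 1382.882 kb in vehicle 2.

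EPHX1 (chromosome 1, 225810124 to 225845563, plus strand) had 1 region, inside the gene and CDDO-Im-only (chr1:225817653-225818040). RefSeq gives 3 start sites for EPHX1, and the region lay between the first and the next. Its summits were 7735 and 7701 bp downstream of the first start site, and 6352 and 6386 bp upstream of the next, in CDDO-Im 1 and 2. CDDO-Im 1 had 18 tags there and CDDO-Im 2 had 25, and no peak was listed in vehicle 1 or 2.

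The CDDO-Im libraries lay closer together at EPHX1 than at the first NQO2 region. Its fold enrichment was 12.1 and 12.9 and its −log10 q 17.5 and 22.6 in CDDO-Im 1 and 2. Over each library's lowest background, CDDO-Im 2 exceeded CDDO-Im 1 by 1.25-fold, near the median of 1.28 over the 1428 regions. Its local background was 1.73 times the lowest of the library in CDDO-Im 1 (0.575 tags) and 2.76 times in CDDO-Im 2 (1.02 tags). Its 43 summed tags were exceeded in 14.5% of the 1428 regions, the same as at the first NQO2 region. The nearest vehicle peaks were 381.289 kb from the gene in vehicle 1 and 731.283 kb in vehicle 2.

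**Figure D4:**
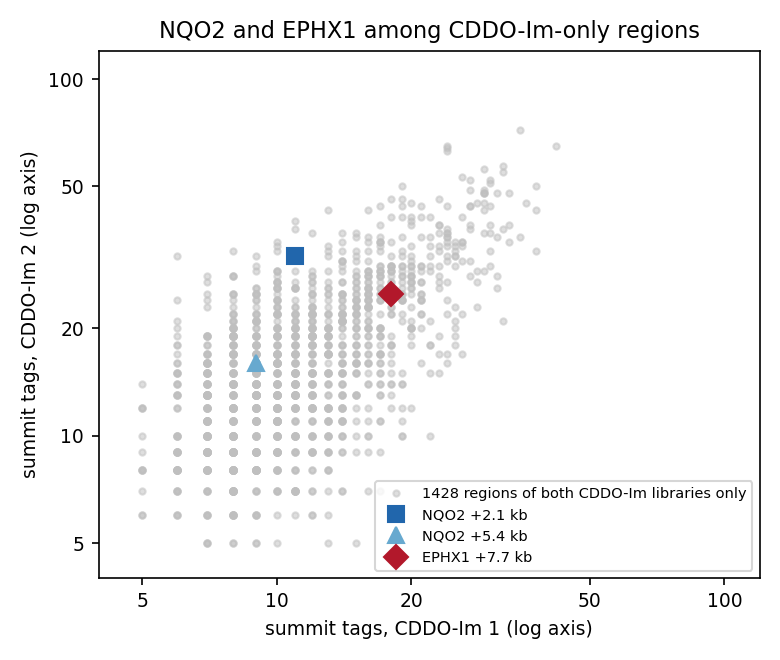
Summit tags in CDDO-Im 1 (x, log axis) and CDDO-Im 2 (y, log axis) for the 1428 CDDO-Im-only regions outside dense megabases. The NQO2 sites have 11 and 32 tags (square) and 9 and 16 tags (triangle), and the EPHX1 site 18 and 25 tags (diamond).

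Absence from a vehicle list does not show that NRF2 was absent. The vehicle libraries listed peaks from 4 tags at their lowest background, and their median listed peak outside dense megabases had 6 and 7 tags in vehicle 1 and 2. Sites with fewer tags, or with a raised local background, could go unlisted. At NQO1 the background was 1.73 and 1.38 times the lowest in CDDO-Im 1 and 2, and 1.78 and 1.45 times in vehicle 1 and 2. In CDDO-Im 1 and 2 it was 2.26 and 4.15 times at the first NQO2 region and 1.21 and 1.71 times at the second. At EPHX1 it was 1.73 and 2.76 times in CDDO-Im 1 and 2. The vehicle background at sites without a vehicle peak is not known, and its part in their absence from the vehicle lists was not tested. A fold change with vehicle is therefore not given for the sites without a vehicle peak.

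**Figure D5:**
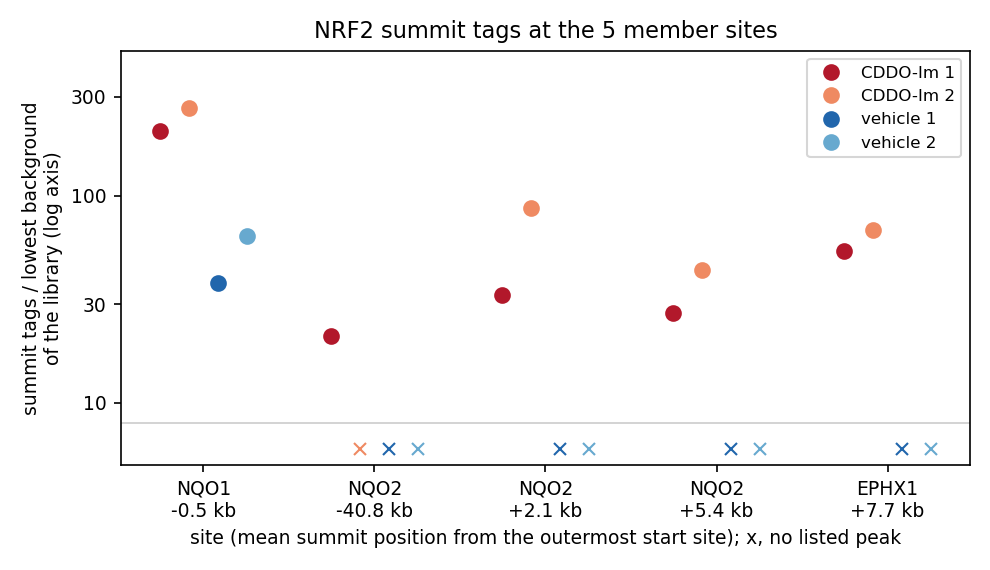
Summit tags over the lowest background of each library (log axis) at the 5 member sites, labelled by gene and mean summit position from the outermost start site. Crosses stand for no listed peak. At NQO1 the CDDO-Im libraries have 205 and 264 and the vehicle libraries 38.0 and 63.6; the other sites have values from 21.1 to 87.1 in the CDDO-Im libraries and none in the vehicle libraries.

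The remaining epoxide hydrolases had no listed peak in the gene or within 50 kb. For EPHX2 (chromosome 8, 27491143 to 27548626) the nearest peak was 68.603 kb away in CDDO-Im 2, with 10 tags, which was also the nearest outside the limit at any member. A region inside SCARA3, 135 kb from EPHX2, was listed with 19 and 24 tags in CDDO-Im 1 and 2, and with 8 tags in vehicle 2 alone of the vehicle libraries. For EPHX3 (chromosome 19, 15226919 to 15237008) the nearest vehicle 1 peak was 99.459 kb away, with 7 tags. For EPHX4 (chromosome 1, 92029985 to 92063538) no library listed a peak within 268 kb. EPHX1 had a further CDDO-Im-only region 72.2 kb from the gene, with 10 and 27 tags in CDDO-Im 1 and 2, outside the limit.

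Start-site windows were searched on both strands for the core of the antioxidant response element, TGACNNNGC, and its more specific form TGACTCAGC. The overlapping motifs TGACTCA and TGANTCA were searched too. Any match to TGACTCAGC is also a match to TGACNNNGC, and any to TGACTCA is also one to TGANTCA. Windows were matched for 5 members (NQO1, NQO2, EPHX1 with 3 windows, EPHX3 and EPHX4). Of these 7 windows, 1 held TGACNNNGC, and none held the other motifs. Over 22156 windows of protein-coding genes, 13.8% held TGACNNNGC, 0.492% TGACTCAGC, 4.02% TGACTCA and 6.16% TGANTCA. The match lay 78 bp upstream of the EPHX1 start site farthest along the gene (GRCh38.p14, chr1:225825104-225825403, plus strand). It read TGACTTGGC. No listed peak overlapped this window, nor the other windows of EPHX1, nor that of NQO2. At NQO1 every summit lay upstream of the window. The search thus did not reach the bases under any member summit, and a lack of matches says nothing about them. A match is a description of the letters and not a site of binding.

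Other genes of quinone, carbonyl and epoxide metabolism were read the same way. Of 35 listed genes, 9 had a CDDO-Im-shared region inside or within 50 kb (25.7%), against 11.6% of all protein-coding genes, and 3 had a vehicle-shared one (8.57%), against 1.81%. Without CDDO-Im 1, a peak of CDDO-Im 2 alone was enough and the count was 16, where 23.0% of all genes had one. Within 10 kb it was 5, where 5.78% of all genes had such a region. These counts carry no test.

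Among 18 genes of quinone and carbonyl reduction, AKR1C2, AKR1C3, POR and TXNRD1 had a CDDO-Im-shared region. TXNRD1, like NQO2, had 2 CDDO-Im-only regions inside the gene. In CDDO-Im 1 and 2, one (chr12:104219368-104219681) had 16 and 22 tags and the other (chr12:104286800-104287088) 16 and 17. POR, which passes electrons from NADPH to cytochromes P450, had a region inside the gene (chr7:75937783-75938311) with 51 and 85 tags in CDDO-Im 1 and 2, against 14 and 9 in vehicle 1 and 2. AKR1C3, an aldo-keto reductase, had one inside the gene (chr10:5071657-5072144) with 38 and 70 tags with CDDO-Im, against 16 and 6 with vehicle. In both, each CDDO-Im library had more tags than each vehicle library, as at NQO1. The same held, in tags over background, for 87.0% of the 230 regions that NQO1 was ranked among. It therefore does not single out POR or AKR1C3. AKR1C2 was counted through a region it shares with AKR1C3, and these genes are close copies, so they are not independent.

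Among 17 genes of epoxide formation and removal, ALOX5, GSTA1, GSTA4, GSTM1 and MGST3 had a CDDO-Im-shared region. MGST3, a microsomal glutathione transferase, had one inside the gene (chr1:165650993-165651353) with 14 and 21 tags in CDDO-Im 1 and 2 and no vehicle peak. The GSTA4 region had 22 and 60 tags in the CDDO-Im libraries, against 9 and 10 in the vehicle libraries, but lay 48.41 kb from that gene and nearest to GSTA3. The regions counted for ALOX5 (49.831 kb away) and GSTM1 (25.736 kb away) were nearest to MARCHF8 and GSTM5. Like EPHX1, MGST3 thus had its region inside the gene, while the other 4 of the 5 counted genes had theirs outside.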

How the data were processed

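NRF2 ChIP-seq peak lists of 4 HMC3 libraries were used, 2 per group. The tools named in the submitters' processing notes are MACS2 2.2.7.1, BWA 0.7.17 and bcl2fastq 2.15.0, with the builds hg38 and GRCm38. The lists were read as hg38, to which the names of their chromosomes and alternate contigs belong. The peak caller's control, its threshold and the treatment of duplicates: not given in the sources used here. Peaks were listed per library, per the peak names. Each peak has a deposited fold enrichment (a ratio), a deposited −log10 p and −log10 q, and a deposited score of 10 times the −log10 q. The depth in reads is unknown.

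Summit tags were recovered from the deposited fold (tags plus 1 over background plus 1) and −log10 p (upper Poisson tail). Whole numbers fitted 100.0% of peaks (tolerance 0.001 plus 0.0002 of the value), with a single match for 97.7% to 99.4%. The recovery was tested on simulated data. Tags were divided by the library's lowest background. Peaks overlapping by 1 bp were joined into regions.

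Groups were compared by exact two-sided permutation tests, and member counts were set beside all protein-coding genes without a test. Start sites and windows come from RefSeq, GRCh38.p14. All 6 members and their peaks are named. Other genes were named as nearest to member peaks or as pathway genes with a CDDO-Im-shared region. Genes nearest to the 5 regions most like that of NQO1 were named too. Genes with a region of all 4 libraries near a start site, neighbours within the NQO1 window, genes at peaks just outside a window and genes nearest to pathway regions were named after their values were seen. Members, lists and tests were chosen with earlier results of these data known. Python 3.11.15, scipy 1.17.1 and pandas 2.3.3 were used.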

Additional observations from a re-analysis of the deposited data

How the results depend on the processing

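The NQO1 difference kept its direction under every alternative run, from 1.87 to 2.61 on the log2 scale when a library was left out. It was 2.29 with background per bp of the shortest peak, 2.39 with tags unscaled and 2.28 with the deposited fold enrichment. The difference in member peak numbers kept its direction too, between 2.5 and 4.0. With the replicate numbers as a block, the NQO1 difference was 2.24 and that in peak numbers 3.5 (exact sign-flip p = 0.5 for both, the smallest that 2 pairs allow). Over the 230 regions of all 4 libraries, the deviations of libraries of the same number had a correlation of r = -0.043. With 2 libraries per group, this cannot show whether libraries of the same number share a batch. With peaks of −log10 q 10 or more, 2 members had a CDDO-Im-shared region, and 3 under the other alternatives. At that threshold, 0 members had a vehicle-shared region, against 1 otherwise, since the NQO1 peak of vehicle 1 falls below it. CDDO-Im-only regions at the members numbered 1 there, against 3, or 4 without CDDO-Im 2. Pathway genes with a CDDO-Im-shared region numbered 5 within 10 kb, against 9, and between 9 and 16 when a library was left out, the highest without CDDO-Im 1. With 2 libraries against 2 no test here could pass the threshold of 0.05, and few tags at NQO2 and EPHX1 limit what an unlisted vehicle peak can show.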
